A study of Gallus gallus with 45 samples.

Results

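The brush border enzymes and villin are a group of 7 genes that build or equip the apical face of the absorptive cell of the small intestine: ANPEP, DPP4, ENPEP, MEP1A and SI, which encode enzymes, and VIL1 and EZR, which encode structural proteins. Their expression was followed in the jejunum of chicken lines X and Y at days 0, 4 and 16. A probe belonged to the group when the RefSeq identifier of the array design carried the symbol of a listed gene. In this way 4 of the 7 genes were found on the array, with 12 of 43603 probes: 6 for ANPEP, 3 for DPP4, 2 for EZR and 1 for VIL1. MEP1A, ENPEP and SI had no matched probe and were not analysed here. All 12 probes passed the filter on dim probes, which 25527 probes of the array passed.

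Lines X and Y are genetically divergent broiler lines, both housed on a floor with free access to feed and water. Each array held the RNA of whole jejunal tissue from 1 pool of 10 birds, so that a value is the average of those birds and the replicate is the pool. There were 7 pools of line Y and 7 of line X at day 0, 7 of line Y and 8 of line X at day 4, and 8 of each line at day 16, 45 arrays in total. The comparisons asked whether the jejunum of line Y differed from that of line X at each day, and how each line changed with age. The titles of line Y pools 2 to 8 name day 4 whereas their age field says 0 days, and the age field was followed. The 6 groups were hybridized on 6 slides, 1 group to a slide, and slide and group therefore cannot be told apart in any comparison.

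The brush border is the carpet of microvilli on the enterocyte, the absorptive cell of the villus. Bundles of actin hold each microvillus upright, and villin (VIL1) cross-links these filaments while ezrin (EZR) ties them to the membrane. Peptidases are anchored in that membrane with their active sites towards the lumen. Aminopeptidase N (ANPEP) removes neutral amino acids from the N-terminus of peptides, and dipeptidyl peptidase 4 (DPP4) removes dipeptides that end in proline or alanine and also cuts incretin hormones. Enterocytes of the embryo already carry such enzymes, and the balance between them changes when the chick turns from yolk to feed.

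Depth differed between arrays, and at day 0 it separated the lines. The median raw intensity lay between 78 and 262, between 61.8 and 81.8 % of the probes were well above background, and between 0.280 and 1.06 % were saturated. At day 0 the median raw intensity was 197 to 262 in line Y pools and 140 to 173.5 in line X pools. The share well above background was then 77.0 to 81.8 % in line Y and 73.1 to 76.9 % in line X. Depth also went with age. In line Y the median raw intensity was 136 to 199 at day 4 and 110 to 183 at day 16. In line X it was 141 to 195 at day 4 and 78 to 170 at day 16. The part of depth in the line differences and in the changes with age was not tested. Arrays of the same group correlated with r between 0.973 and 0.994. Values are given on the log2 scale after normalization between arrays, as lowest, median and highest pool. A probe was called higher or lower when the adjusted p-value of limma (Benjamini-Hochberg over 25527 probes) was under 0.05 and the fold change exceeded 1.3. The adjusted p-values set a difference against the spread between pools of a group. That spread lies within a slide, so they do not cover variation between slides.

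The label of the tissue was checked with other markers of enterocytes, of which 13 of 24 had a matched probe and were kept. APOA1 was saturated in every pool, and CDH1 in every pool but 1 of line X at day 16. FABP2, APOA4 and CDX2 were saturated in every pool of line X and line Y at day 4. At day 0 the summed linear signal of the 13 markers was 573031 to 622575 in line Y pools and 528704 to 586927 in line X pools. At day 4 it was 499814 to 572541 in line Y pools and 504074 to 563410 in line X pools, and at day 16 it was 459345 to 525853 in line Y pools and 473416 to 522876 in line X pools. Saturated markers enter these sums at the ceiling, so the sums cannot show changes of those markers above it. No kept marker was at 0, which is no check of the label, since the filter had already removed dim markers. In whole tissue, fewer enterocytes and less RNA per enterocyte cannot be told apart.

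The only probe of VIL1, A_87_P009543, was saturated on all 45 arrays. The raw signal stood at the ceiling of the scanner, with 65529 in each line Y pool and 65535 in each line X pool at day 0, 65528 in line Y against 65529 in line X at day 4, and 65529 in line Y against 65535 in line X at day 16. The normalized values of VIL1 stayed between 15.95 and 16.00 in the 45 pools. A ceiling hides any change above it, so no fold change is given for villin in any comparison. The same held for ANPEP probe A_87_P009763, which was saturated on all 45 arrays with normalized values between 15.79 and 16.00. The other 10 probes were saturated on no array, and the comparisons below rest on them.

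The group means of DPP4 probes A_87_P056431 and A_87_P312012 ranged over 0.94 and 0.95 log2 units, against 0.46 to 0.75 for the unsaturated probes of ANPEP and EZR. At day 0 the pools of line Y stood above those of line X with A_87_P312012, whereas A_87_P056431 did not separate the lines. Both probes fell in line Y between days 4 and 16. At day 16 all 3 probes had lower means in line Y than in line X. Only the dim probe A_87_P232253 passed both thresholds there, with values under the limit of the filter in most pools, so that its call is no test. A_87_P232253 had no measured level in line X at days 0 and 4, so it has only bounds on those days.

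Probe A_87_P056431 of DPP4 had 14.65, 14.78 and 14.89 in line Y and 14.29, 14.72 and 14.93 in line X at day 0. At day 4 the values were 13.97, 14.29 and 14.49 in line Y and 13.76, 14.02 and 14.32 in line X. At day 16 they were 13.53, 13.83 and 14.33 in line Y and 13.76, 14.18 and 14.54 in line X. The pools of the lines overlapped on every day. Between days 0 and 4, however, no pool of line Y at day 4 reached the lowest pool of line Y at day 0.

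The line difference of A_87_P056431 (line Y minus line X) was 0.07 ± 0.11 at day 0 (log2, SE, adjusted p-value 0.603), with a 95 % interval from -0.15 to 0.30. It was 0.21 ± 0.11 at day 4 (adjusted p-value 0.133) and -0.32 ± 0.11 at day 16 (adjusted p-value 0.00979), where the fold change of 1.25 stayed under the threshold. With age the probe fell in both lines between days 0 and 4, by 0.48 ± 0.11 in line Y (adjusted p-value 0.00035) and by 0.61 ± 0.11 in line X (adjusted p-value 4.4e-06). Between days 4 and 16 it fell by 0.46 ± 0.11 in line Y (adjusted p-value 0.00062), while line X had a difference of 0.07 ± 0.11 (adjusted p-value 0.602). The test of the difference itself was passed: the line difference was 0.53 ± 0.15 lower at day 16 than at day 4 (adjusted p-value 0.00466). In order of their means the groups were line Y day 0, line X day 0, line Y day 4, line X day 16, line X day 4 and line Y day 16, and neighbours in this order overlapped. Scaling to the 75th percentile used the processed signal of the scanner software, without normexp correction or quantile normalization, so more than the scaling differed. With this setting both calls of a fall in line Y were lost. The values were then just under the fold threshold (-0.38 and -0.34, adjusted p-values 0.0016 and 0.0044), whereas the line difference at day 16 passed both thresholds (-0.39, adjusted p-value 0.00074). That difference also passed without pool 18 of line X (-0.38) or pool 22 of line Y (-0.39).

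Probe A_87_P312012 of DPP4 had 10.64, 10.95 and 11.56 in line Y and 10.30, 10.40 and 10.62 in line X at day 0. Every pool of line Y was thus above every pool of line X at day 0. The values at day 4 were 10.34, 10.67 and 11.01 in line Y and 10.02, 10.43 and 10.85 in line X, and those at day 16 were 9.62, 10.10 and 10.36 in line Y and 9.99, 10.26 and 10.95 in line X. On these later days the lines overlapped.

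A_87_P312012 was 1.47-fold higher in line Y at day 0 (0.56 ± 0.14, adjusted p-value 0.00084). The difference was 0.27 ± 0.13 at day 4 (adjusted p-value 0.108) and -0.32 ± 0.13 at day 16 (adjusted p-value 0.0364, under the fold threshold). Within line Y this probe was 0.63 ± 0.13 lower at day 16 than at day 4 (adjusted p-value 0.00016), against -0.04 ± 0.13 in line X (adjusted p-value 0.804). The line difference fell by 0.59 ± 0.19 between these days (adjusted p-value 0.010). The change of the line difference between days 0 and 4 was -0.28 ± 0.19 (adjusted p-value 0.287). With scaling to the 75th percentile the difference at day 0 was 0.33 (adjusted p-value 0.048), under the fold threshold, and that at day 16 passed both thresholds (-0.39, adjusted p-value 0.013).

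Probe A_87_P232253 of DPP4 gave a weak signal that was not well above background in many pools. At day 0 it exceeded background clearly (the well-above flag of the scanner software) in 7 of 7 line Y pools and in 0 of 7 line X pools. At day 4 it did so in 7 of 7 line Y pools and 0 of 8 line X pools, and at day 16 in 6 of 8 line Y pools and 7 of 8 line X pools. It passed the filter through line Y at day 0 alone, so that a difference at day 0 was built into its selection and its calls support nothing about the group as a whole. At day 16 it exceeded the limit of that filter in 0 of 8 line Y pools and 2 of 8 line X pools. Its raw intensity had a median of 143 in line Y and 34 in line X at day 0, of 95 in line Y and 37 in line X at day 4, and of 55.8 in line Y and 63.5 in line X at day 16. These raw values are not normalized, and every line Y array of day 0 had a higher median raw intensity than every line X array.

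On the log2 scale A_87_P232253 had 5.91, 6.44 and 6.82 in line Y and 3.25, 3.90 and 4.37 in line X at day 0. It had 5.71, 5.99 and 6.13 in line Y and 3.85, 4.20 and 4.47 in line X at day 4. At day 16 it had 4.56, 5.18 and 5.72 in line Y and 5.36, 5.70 and 6.03 in line X. The lines were fully apart at days 0 and 4 and overlapped at day 16.

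Since line X was not well above background at days 0 and 4, A_87_P232253 has only a bound there. At day 0 line Y exceeded line X 5.04-fold by this bound, a description without a test because the filter used those pools. The bound for day 4 was 2.45-fold, also without a test, since line X was unmeasured there. Each bound sets the mean of the brighter group against the lowest signal that was well above background on each array, or the signal of the probe where that was higher. This is a lenient limit, whereas the limit of the filter was 4.74 or higher on every array. A stricter limit would give smaller folds, so the bounds hold only for the limit used. At day 16 the probe was 1.36-fold lower in line Y (-0.45 ± 0.14, adjusted p-value 0.00716), and without pool 20 of line Y this call was lost (-0.35, adjusted p-value 0.028). By the same kind of bound line X was 1.99-fold higher at day 16 than at day 4, without a test since line X was unmeasured at day 4. In line Y the probe fell by 0.74 ± 0.14 between days 4 and 16, and its mean at day 4 was 0.46 ± 0.15 lower than at day 0, both again descriptions. No change of its line difference is given, since line X was unmeasured at days 0 and 4. With an offset of 50, which shrinks differences of dim probes by construction, the fall between days 4 and 16 was -0.36 and the line difference at day 16 was -0.20, both under the fold threshold.

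**Figure D1:**
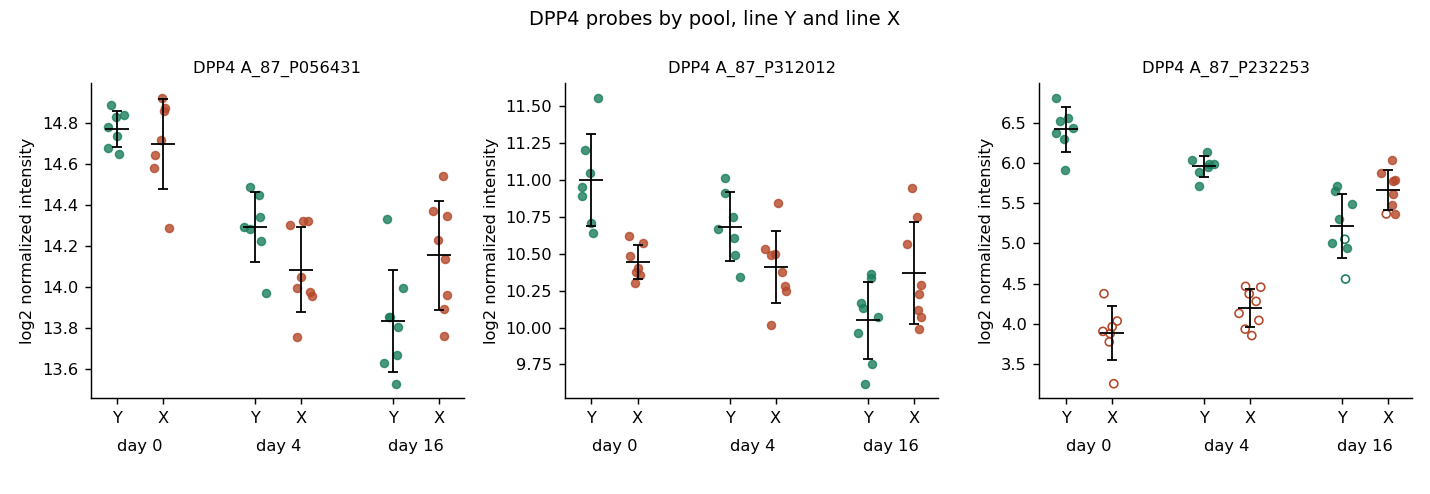
DPP4 in each pool of 10 birds, as log2 normalized intensity, for the 3 probes, with line Y left of line X at days 0, 4 and 16 (7 to 8 pools a group). Points are pools, open where the probe was not well above background, and bars are the mean and SD; with A_87_P312012 the 7 pools of line Y at day 0 lie at 10.64 or above, and the 7 of line X at 10.62 or below.

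ANPEP gave no single answer, because its probes differed in direction. At day 0 probes A_87_P131683 and A_87_P087786 were higher in line Y and A_87_P087146 was lower, while A_87_P307952 and A_87_P235038 had negative differences that did not pass the test. The mean over the 6 probes differed by 0.03 ± 0.13 between the lines at day 0 (adjusted p-value 0.839 over 3740 genes), by -0.24 ± 0.13 at day 4 (adjusted p-value 0.145) and by 0.06 ± 0.12 at day 16 (adjusted p-value 0.700). The saturated probe A_87_P009763 is part of that mean.

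Probe A_87_P131683 of ANPEP had 14.70, 14.83 and 15.57 in line Y and 13.32, 14.33 and 15.11 in line X at day 0. At day 4 it had 13.996, 14.45 and 14.77 in line Y and 14.19, 14.71 and 15.29 in line X, and at day 16 it had 14.51, 14.82 and 15.62 in line Y and 13.93, 14.52 and 14.92 in line X. The lines overlapped on each day, and the median of line Y was the higher at days 0 and 16 and the lower at day 4.

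The line difference of A_87_P131683 was 0.67 ± 0.19 at day 0 (1.59-fold, adjusted p-value 0.00345), -0.35 ± 0.19 at day 4 (adjusted p-value 0.140) and 0.41 ± 0.18 at day 16 (adjusted p-value 0.0535). The difference at day 16 passed both thresholds with pool number as a block (0.41, adjusted p-value 0.046) and on leaving out any 1 of 10 pools (0.41 to 0.47, adjusted p-values 0.032 to 0.048), namely pools 3, 5, 15, 17, 21 and 23 of line X and 4, 19, 20 and 24 of line Y. No other single omission gave a call. Pools 3, 5 and 15 of line X and 4 of line Y are not of day 16. Without any 1 of those the difference stayed at 0.41, and only the shared spread and the adjustment changed. The change of the line difference was tested and passed both times, at -1.02 ± 0.27 between days 0 and 4 (adjusted p-value 0.00521) and at 0.76 ± 0.26 between days 4 and 16 (adjusted p-value 0.0172). In line Y the probe was 1.5-fold lower at day 4 than at day 0 (-0.59 ± 0.19, adjusted p-value 0.00903) and 1.49-fold higher at day 16 than at day 4 (0.57 ± 0.19, adjusted p-value 0.0117). In line X it was 1.35-fold higher at day 4 than at day 0 (0.44 ± 0.19, adjusted p-value 0.0389). This last call was lost without any 1 of pools 2, 5 and 7 of day 0 or pools 9, 10, 15 and 16 of day 4, with values down to 0.28 (adjusted p-value 0.172 without pool 5). It was also lost without the filter (adjusted p-value 0.051) and with only the compared groups in the fit (adjusted p-value 0.078), and the fall in line Y between days 0 and 4 was lost with scaling to the 75th percentile (-0.36, adjusted p-value 0.090).

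Probe A_87_P087786 of ANPEP had 12.29, 12.46 and 13.91 in line Y and 11.14, 12.08 and 12.95 in line X at day 0, 11.75, 12.06 and 12.85 in line Y and 11.91, 12.47 and 13.23 in line X at day 4, and 12.27, 12.64 and 13.71 in line Y and 11.85, 12.39 and 13.15 in line X at day 16. All groups overlapped, and pool 4 of line Y lay above the other pools of day 0. The line difference was 0.66 ± 0.26 at day 0 (adjusted p-value 0.0272), -0.32 ± 0.25 at day 4 (adjusted p-value 0.325) and 0.30 ± 0.24 at day 16 (adjusted p-value 0.307). The call at day 0 was lost without pool 4 of line Y (0.45, adjusted p-value 0.116), without pool 5 of line X (0.52, adjusted p-value 0.091) and without pool 7 of line X (0.58, adjusted p-value 0.066). The line difference fell by 0.98 ± 0.36 between days 0 and 4 (adjusted p-value 0.0391), a call that was lost on leaving out any 1 of 10 pools: pools 5 and 7 of day 0 and 9, 10 and 15 of day 4 in line X, and pool 4 of day 0 and 12, 13, 15 and 16 of day 4 in line Y (values between -0.77 and -0.95, adjusted p-values 0.054 to 0.088). In line X the probe differed by 0.54 ± 0.25 between days 4 and 0 (adjusted p-value 0.0503), which passed both thresholds with an offset of 50 (0.54, adjusted p-value 0.049). It also passed on leaving out any 1 of 13 pools (0.54 to 0.70), and no other single omission gave a call. Of these, pools 3, 6, 11, 12, 13 and 14 of line X are in the compared groups. Pools 17, 20 and 21 of line X and 4, 11, 22 and 24 of line Y are not. Without any 1 of those the difference stayed at 0.54, and only the shared spread and the adjustment changed. In line Y it was 0.53 ± 0.25 higher at day 16 than at day 4 (adjusted p-value 0.0788), which passed without pool 11 of day 4 (0.63, adjusted p-value 0.042). With scaling to the 75th percentile the call at day 0 was lost (0.51, adjusted p-value 0.085), as was the change between days 0 and 4 (-0.84, adjusted p-value 0.074).

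Probe A_87_P087146 of ANPEP had 9.59, 10.14 and 10.96 in line Y and 10.43, 10.67 and 11.04 in line X at day 0, where line Y was 1.43-fold lower (-0.51 ± 0.20, adjusted p-value 0.0304). Leaving out pool 2 or 7 of line Y, or pool 3, 4 or 6 of line X, ended this call, with values between -0.41 and -0.49. The differences of this probe were -0.25 ± 0.20 at day 4 (adjusted p-value 0.336) and -0.35 ± 0.19 at day 16 (adjusted p-value 0.114), the last of which passed without pool 18 of line X (-0.47) or pool 22 of line Y (-0.48). The remaining probes, A_87_P307952 and A_87_P235038, differed between the lines by -0.28 ± 0.17 and -0.31 ± 0.16 at day 0 (adjusted p-values 0.173 and 0.0868), and neither was called on any day or between days. Without pool 4 of line Y both passed at day 0 (-0.44 and -0.42, adjusted p-values 0.018 and 0.017), and without pool 17 of line Y A_87_P235038 was called higher at day 16 than at day 4 in that line (0.39, adjusted p-value 0.032). With scaling to the 75th percentile these calls changed places at day 0: A_87_P087146 was no longer called (-0.40, adjusted p-value 0.060), whereas A_87_P307952 and A_87_P235038 were (-0.40 and -0.60, adjusted p-values 0.045 and 0.0013). That scaling also called A_87_P235038 lower at day 4 than at day 0 in line X (-0.39, adjusted p-value 0.024).

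**Figure D2:**
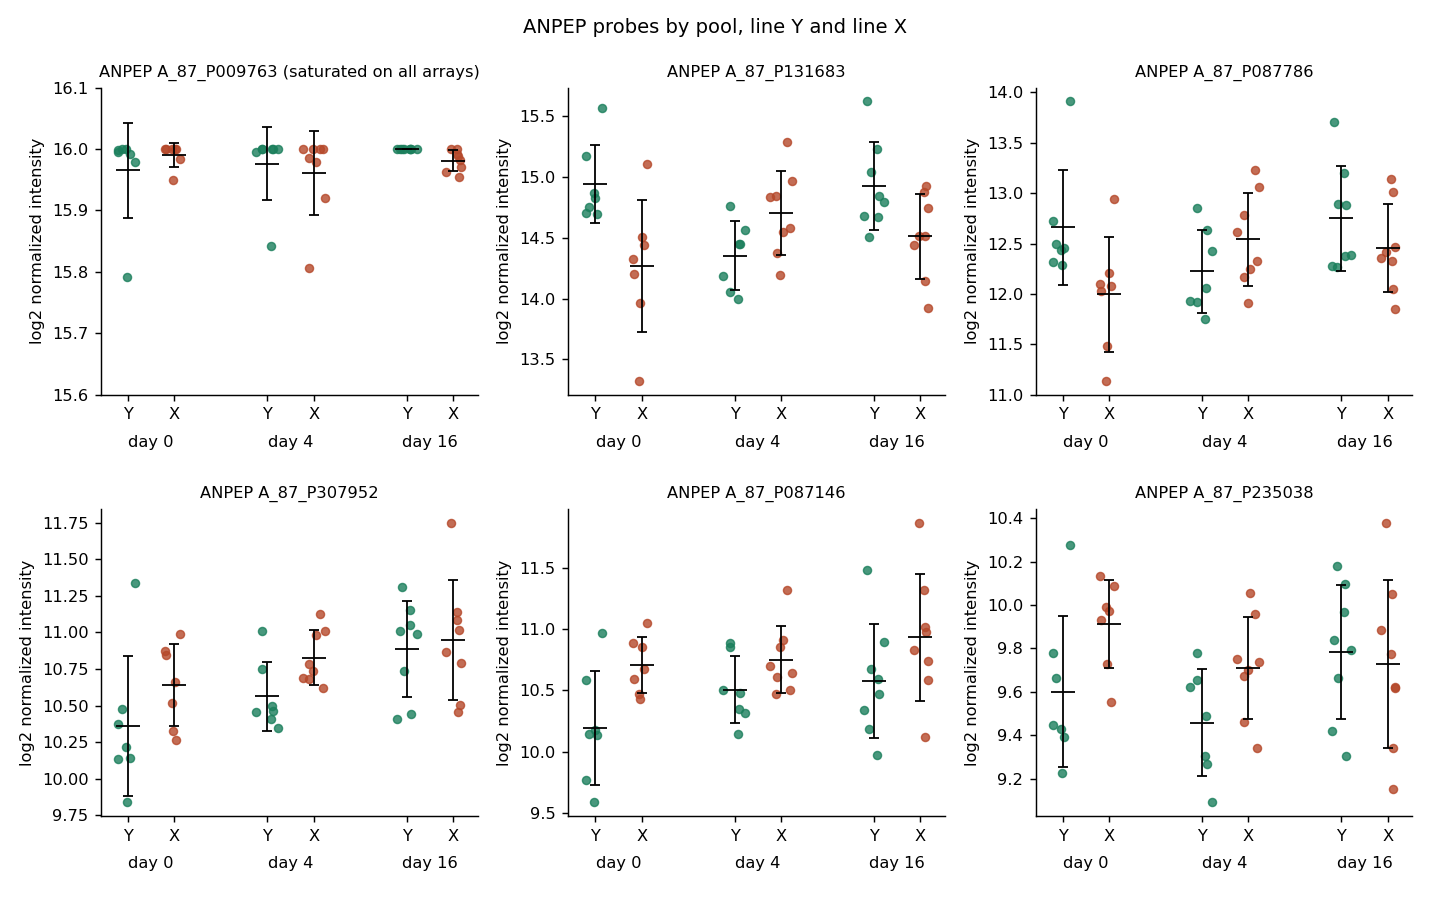
ANPEP in each pool of 10 birds, as log2 normalized intensity, for the 6 probes, with line Y left of line X at days 0, 4 and 16; each panel has its own axis, points are pools and bars are the mean and SD. The saturated probe is pinned near 16.00, A_87_P131683 and A_87_P087786 have higher means in line Y at day 0, and the other 3 probes have lower ones.

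Probes of a gene differed in how far they varied together between pools of the same group. Each value was taken as the deviation from its group mean, and 14 pairs of probes were set against each other over the 45 pools. ANPEP probes A_87_P131683 and A_87_P087786 correlated with r = 0.94 and rho = 0.95 (permutation p 1e-05 for each, the smallest that 100000 permutations within groups can give, adjusted 4.7e-05 over 14 relations), and r was 0.94 without the 2 pools farthest from the median. A_87_P307952 and A_87_P235038 correlated with r = 0.84 and rho = 0.83 (permutation p 1e-05 for each, adjusted 4.7e-05, and r 0.78 without the 2 farthest pools). A_87_P307952 was also correlated with A_87_P131683 (r = 0.37, rho = 0.38, permutation p 0.0161 and 0.0141, adjusted 0.025 and 0.022, and r 0.35 without the 2 farthest pools) and with A_87_P087786 (r = 0.47, rho = 0.43, permutation p 0.00456 and 0.00639, adjusted 0.00798 and 0.0112, and r 0.34 without the 2 farthest pools). A_87_P087146 correlated with each of the other 4, at r of 0.53 to 0.62 and rho of 0.48 to 0.56 (adjusted permutation p 0.00042 to 0.00218 for r and 0.000805 to 0.00308 for rho, and r 0.39 to 0.53 without the 2 farthest pools). A_87_P235038 was not shown to vary with A_87_P131683 (r = 0.17, rho = 0.19, permutation p 0.258 and 0.238, adjusted 0.278 and 0.297, and r 0.19 without the 2 farthest pools) or with A_87_P087786 (r = 0.21, rho = 0.17, permutation p 0.183 and 0.273, adjusted 0.213 and 0.297, and r 0.06 without the 2 farthest pools). The probes of EZR correlated with r = 0.76 and rho = 0.72 (permutation p 1e-05 for each, adjusted 4.7e-05, and r 0.69 without the 2 farthest pools). DPP4 probes A_87_P056431 and A_87_P312012 had r = 0.34 and rho = 0.38 (permutation p 0.0338 and 0.017, adjusted 0.0474 and 0.0238, and r 0.39 without the 2 farthest pools). The dim probe A_87_P232253 had r = 0.23 with A_87_P056431 and -0.01 with A_87_P312012 (rho 0.18 and 0.04, adjusted permutation p 0.213 and 0.974 for r and 0.297 and 0.826 for rho, and r 0.20 and 0.06 without the 2 farthest pools). Since each group was a slide, these values are within slides.

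EZR was lower in line Y at day 16 than at day 4, and its means were lower in line Y than in line X on every day with both probes. Probe A_87_P038194 had 11.24, 11.88 and 11.99 in line Y and 11.93, 12.06 and 12.35 in line X at day 0, 11.53, 12.01 and 12.13 in line Y and 11.43, 12.03 and 12.33 in line X at day 4, and 10.91, 11.54 and 11.91 in line Y and 11.46, 11.76 and 12.15 in line X at day 16. Probe A_87_P192733 had 11.11, 11.66 and 12.07 in line Y and 11.69, 12.06 and 12.35 in line X at day 0, 11.66, 11.88 and 12.07 in line Y and 11.60, 12.15 and 12.60 in line X at day 4, and 10.98, 11.48 and 11.86 in line Y and 11.33, 11.88 and 12.30 in line X at day 16. The lines overlapped on each day with each probe.

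The line differences of EZR were small. A_87_P192733 was 1.31-fold lower in line Y at day 0 (-0.39 ± 0.15, adjusted p-value 0.0249), a call that was lost without pool 4 of line Y (-0.30, adjusted p-value 0.090) and without pool 3, 7 or 8 of line X (values between -0.35 and -0.37). A_87_P038194 differed by -0.29 ± 0.14 on that day (adjusted p-value 0.0677). At day 4 the differences were -0.25 ± 0.15 and -0.09 ± 0.13 with these probes (adjusted p-values 0.169 and 0.607). At day 16 they were -0.37 ± 0.14 and -0.31 ± 0.13 (adjusted p-values 0.0269 and 0.0362), under the fold threshold. The first of these passed both thresholds on leaving out pool 18, 20 or 21 of line X or pool 18, 19, 21 or 22 of line Y (-0.38 to -0.44).

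Between days 4 and 16 EZR fell in line Y by 0.41 ± 0.13 with A_87_P038194 (adjusted p-value 0.00894) and by 0.38 ± 0.15 with A_87_P192733 (adjusted p-value 0.0299). In line X the differences were -0.20 ± 0.13 and -0.27 ± 0.14 (adjusted p-values 0.197 and 0.105). The lines were not shown to differ in this change (-0.22 ± 0.18 and -0.11 ± 0.20, adjusted p-values 0.350 and 0.690). The fold change was close to the threshold of 1.3, so the call of A_87_P038194 was lost without pool 13, 23 or 24 of line Y (values between -0.33 and -0.38). That of A_87_P192733 was lost without pool 10, 12, 13, 15, 17, 20, 23 or 24 of line Y (values between -0.31 and -0.38). With scaling to the 75th percentile no EZR call remained, at -0.31 for A_87_P192733 at day 0 and at -0.32 and -0.26 for A_87_P038194 and A_87_P192733 between days 4 and 16 in line Y.

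**Figure D3:**
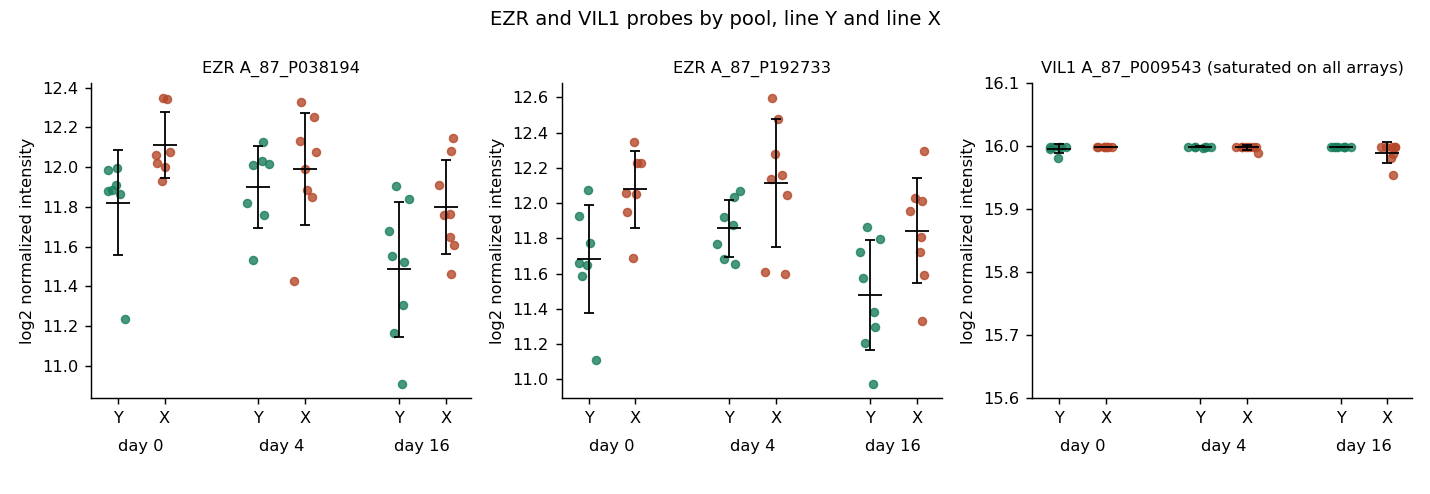
EZR (2 probes) and VIL1 (1 probe) in each pool of 10 birds, as log2 normalized intensity, with line Y left of line X at days 0, 4 and 16; points are pools and bars are the mean and SD. The EZR pools of line Y at day 16 lie between 10.91 and 11.91 with A_87_P038194, and all 45 VIL1 values are pinned at the ceiling between 15.95 and 16.00.

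The counts cover the 9 probes that were neither saturated nor kept through 1 group alone. At day 0, 3 of the 9 were called higher and 2 lower in line Y, against 38.1 % of all probes called in either direction, 19.02 % higher and 19.09 % lower. At day 4 limma called 0 of the 9 (1 had an unadjusted p under 0.05), against 23.3 % of all probes (12.1 % higher and 11.3 % lower). At day 16 it called 0 of the 9 (5 had an unadjusted p under 0.05), against 33.6 % (18.16 % higher and 15.49 % lower). The 9 probes had a median difference of -0.28 at day 0, beside -0.03 over all kept probes. At day 4 the medians were -0.25 and -0.05, and at day 16 they were -0.31 and 0.01. The probes of a gene share a transcript, so these counts are not counts of independent genes.

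With age, 0 of the 9 probes rose and 2 fell between days 0 and 4 in line Y, against 42.1 % of all probes called (18.8 % rose and 23.3 % fell), and 1 rose and 1 fell in line X, against 51.9 % (26.3 % rose and 25.6 % fell). Between days 4 and 16, 1 rose and 4 fell in line Y, against 30.2 % of all probes called (13.7 % rose and 16.5 % fell). In line X limma called 0 (0 had an unadjusted p under 0.05), against 34.8 % (14.1 % rose and 20.6 % fell). The line difference changed between days 0 and 4 for 2 probes, both of ANPEP and both downwards (21.7 % of all probes, 8.63 % upwards and 13.1 % downwards). Between days 4 and 16 it changed for 3 probes, upwards for ANPEP probe A_87_P131683 and downwards for DPP4 probes A_87_P056431 and A_87_P312012 (35.0 % of all probes, 20.1 % upwards and 14.8 % downwards).

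**Figure D4:**
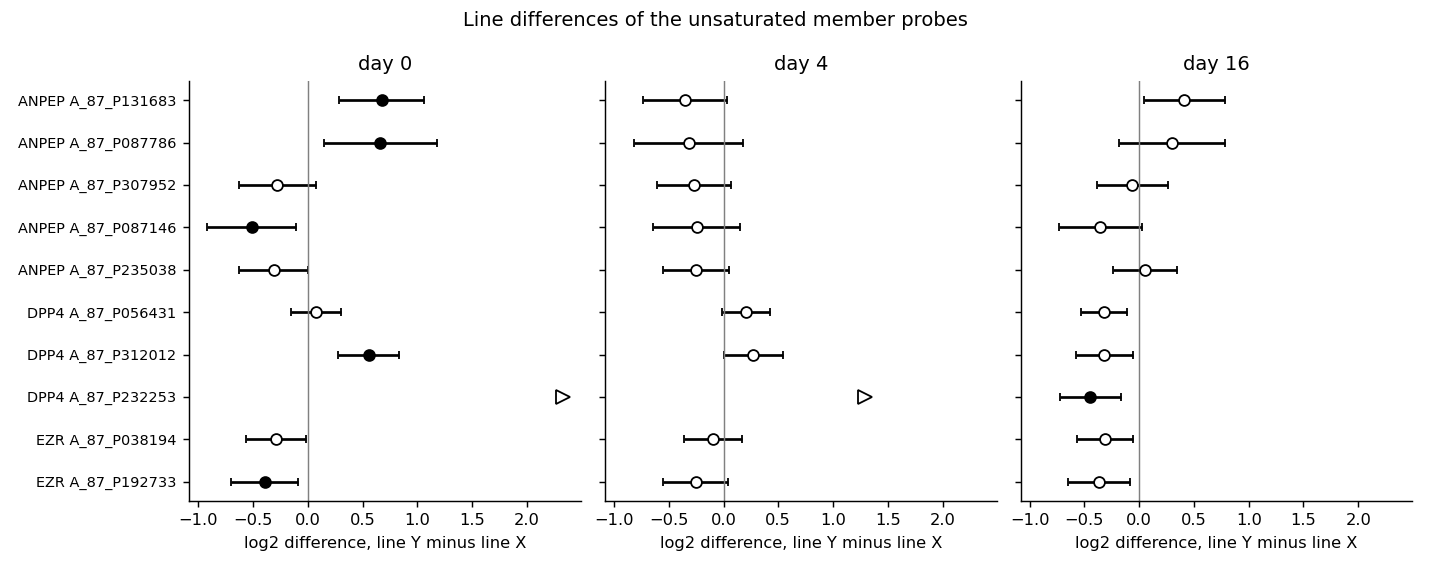
Log2 difference between line Y and line X at days 0, 4 and 16 for the 10 probes that were never saturated, with the 95 % interval of the limma fit. Filled points passed both thresholds, and values above 0 are higher in line Y. Open triangles are bounds without an interval that rest on a lenient background limit. The filled point of A_87_P232253 at day 16 is no test. On that day DPP4 probes A_87_P056431 and A_87_P312012 and the 2 EZR probes all lie below 0, between -0.31 and -0.37.

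Markers of other cell types moved with age in both lines. Of 6 erythrocyte markers kept, 5 of them globins, whose probes may bind more than one globin, 6 were higher at day 4 than at day 0 in line Y and 5 in line X. At day 0 their summed linear signal was 24623 to 52472 in line Y pools and 14293 to 24417 in line X pools. Day 4 gave sums of 220596 to 241643 in line Y and 186718 to 233541 in line X, and day 16 gave 69113 to 143624 in line Y and 48249 to 155005 in line X. Between days 4 and 16, 5 of the 6 fell in line Y and 6 in line X. Line Y exceeded line X at day 0 for 4 of the 6, and 1 was lower, against 14.04 % higher and 17.6 % lower among the named genes.

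Of 8 leukocyte markers, 7 were higher at day 4 than at day 0 in each line, and 8 were higher at day 16 than at day 4 in each line. Day 0 gave sums of 12319 to 17212 in line Y and 14242 to 18983 in line X, day 4 gave 37018 to 54143 in line Y and 34947 to 43175 in line X, and day 16 gave 102273 to 119179 in line Y and 101656 to 112256 in line X. Over 3740 named genes 20.8 % rose and 18.05 % fell between days 0 and 4 in line Y, and 24.2 % rose and 22.5 % fell in line X. Between days 4 and 16, 12.2 % rose and 16.3 % fell in line Y, and 11.3 % rose and 20.1 % fell in line X.

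Of 7 smooth muscle markers, 6 were lower at day 16 than at day 4 in each line, with sums of 135032 to 191859 at day 16 and 158167 to 215787 at day 4 in line Y, and of 95575 to 153791 at day 16 and 148277 to 228576 at day 4 in line X. Line Y exceeded line X at day 16 for 4 of the 7, against 16.2 % of the named genes. Of 9 connective tissue markers, 7 were lower at day 16 than at day 4 in line Y and 8 in line X. Of 8 crypt and cycling cell markers, 4 rose and 1 fell between days 0 and 4 in line Y, and 5 rose and 1 fell in line X. Of the 13 enterocyte markers, 0 rose and 3 fell between days 0 and 4 in line Y, and 2 rose and 3 fell in line X. At day 16, 1 was lower than at day 4 in line Y and 2 in line X. At day 0 line Y exceeded line X for 3, against 14.04 % of the named genes. The part of these cell types in the values of DPP4, ANPEP and EZR was not tested.

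Of 24 other enzymes of the brush border, 5 had a matched probe and were kept. Neprilysin (MME), a peptidase that cuts before hydrophobic residues, fell most with age. Its means were 12.69 in line Y and 12.03 in line X at day 0, 10.25 in line Y and 10.20 in line X at day 4, and 8.65 in line Y and 8.85 in line X at day 16. MME was 5.45-fold lower at day 4 than at day 0 in line Y (-2.45 ± 0.16, adjusted p-value 9.4e-17) and 3.56-fold lower in line X (-1.83 ± 0.16, adjusted p-value 1.3e-13). It was a further 3.02-fold lower at day 16 than at day 4 in line Y (adjusted p-value 2.5e-11) and 2.56-fold lower in line X (adjusted p-value 4.7e-10). The second probe of MME fell in each of these comparisons too. At day 0 its probes disagreed between the lines, with differences of 0.66 (called) and -0.28 (not called).

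ACE, a dipeptidyl carboxypeptidase, was 3.65-fold lower at day 4 than at day 0 in line Y (-1.87 ± 0.12, adjusted p-value 9.6e-18) and 3.28-fold lower in line X (-1.72 ± 0.11, adjusted p-value 3.3e-17). Its other probe was called lower too, with differences of -0.83 in line Y and -1.53 in line X. ENTPD8, an ectonucleotidase, went the other way: it was 1.48-fold higher at day 4 than at day 0 in line Y (0.57 ± 0.12, adjusted p-value 0.00015) and 2.39-fold higher in line X (1.25 ± 0.12, adjusted p-value 4e-12). The line difference of ENTPD8 fell by 0.69 ± 0.17 between these days (adjusted p-value 0.00376). CPM, a carboxypeptidase that removes basic residues, fell between days 4 and 16 by 0.56 ± 0.06 in line Y (adjusted p-value 7.5e-10) and by 0.61 ± 0.06 in line X (adjusted p-value 1.8e-11). The other 3 probes of CPM were called lower in line Y but not in line X. Of the 5 enzymes, 1 rose and 2 fell between days 0 and 4 in line Y, and 1 rose and 4 fell in line X, with median differences of -0.23 in line Y and -0.45 in line X beside 0.03 in line Y and 0.01 in line X over 3740 named genes. Of those named genes, 20.8 % rose and 18.05 % fell in line Y, and 24.2 % rose and 22.5 % fell in line X.

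Of 37 listed symbols of microvillus structure, 10 had a matched probe and 9 were kept. PLS1, an actin bundling protein of the microvillus core, was 2.38-fold higher in line Y at day 0 (1.25 ± 0.10, adjusted p-value 2.3e-14) and 1.56-fold higher at day 4 (0.65 ± 0.10, adjusted p-value 5.6e-07). Its means were 13.38 in line Y and 12.13 in line X at day 0, 14.06 in line Y and 13.42 in line X at day 4, and 14.04 in line Y and 13.84 in line X at day 16. It was 1.61-fold higher at day 4 than at day 0 in line Y (adjusted p-value 1.1e-07) and 2.44-fold higher in line X (adjusted p-value 1.8e-15). The line difference of PLS1 fell between days 0 and 4 (-0.60 ± 0.14, adjusted p-value 0.00152) and again between days 4 and 16 (-0.44 ± 0.13, adjusted p-value 0.00668).

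RDX, a relative of ezrin, was 1.74-fold higher at day 4 than at day 0 in line Y (0.80 ± 0.14, adjusted p-value 6.9e-06), and its other probe was called higher too. In line X RDX differed by 0.28 ± 0.14 (adjusted p-value 0.0663), and neither probe was called. TWF2, an actin binding protein, was 1.72-fold higher at day 4 than at day 0 in line Y (0.78 ± 0.19, adjusted p-value 0.00041) and 1.38-fold higher in line X (0.46 ± 0.18, adjusted p-value 0.0212). ACTG1, a cytoplasmic actin, was 1.41-fold higher in line Y (adjusted p-value 2.3e-08) and 1.55-fold higher in line X (adjusted p-value 2.3e-11). Actin genes are near-identical in sequence, so that ACTG1 probes may also bind other actins, and its 5 probes differed between the lines at day 0 by 0.01 to 1.89. Of the 9 genes, 4 rose and 1 fell between days 0 and 4 in line Y, and 3 rose and 0 fell in line X. Of all named genes, 20.8 % rose and 18.05 % fell in line Y, and 24.2 % rose and 22.5 % fell in line X.

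**Figure D5:**
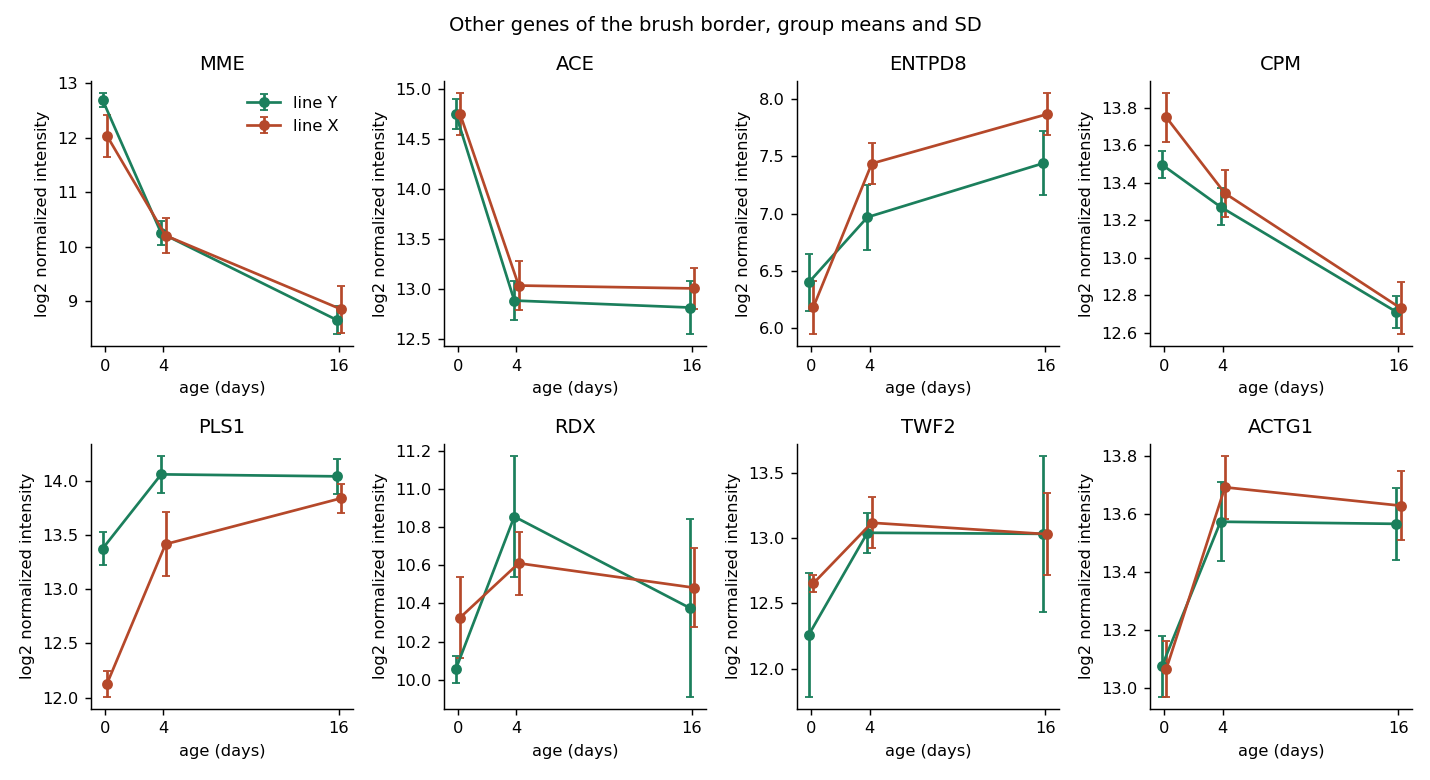
Group means of 8 other brush border genes at days 0, 4 and 16, as log2 normalized intensity, with bars for the SD over 7 to 8 pools, for line Y and line X. The enzymes MME and ACE are lower at day 4 than at day 0 in both lines, whereas ENTPD8, PLS1, TWF2 and ACTG1 are higher.

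Likeness was measured over the 6 group means, each centred on its own average, among genes whose group means ranged over at least 1 log2 unit. The pattern of DPP4 probe A_87_P056431 was closest to those of KLHL9, PGRMC1 and RPL6, with root mean square differences of 0.07, 0.09 and 0.09 log2 units among 1909 genes. That of EZR probe A_87_P038194, whose own means ranged over 0.63, was closest to those of SLMAP, PAIP2B and ZCCHC6, with differences of 0.13, 0.14 and 0.14. For the saturated probes of VIL1 and ANPEP the measure has no content, since their group means ranged over 0.01 and 0.04 at the ceiling.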

How the data were processed

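Jejunal RNA of 45 pools was measured on 1-colour Agilent arrays. The authors deposited the scanner output, whose raw intensity per spot was not normalized, and a log2 table, made by the authors in R version 3.0.2 through limma's normexp background correction (offset 1), quantile normalization and averaging of duplicate spots. Here the log2 values were computed again from the median foreground and median background intensity using limma (version 3.58.1, R version 4.3.3) and equalled the deposited log2 values within 5e-09. Control spots were removed. The number of arrays limits the precision. A probe was kept when its log2 value exceeded 1.1 times that of the brightest dark corner spot on all arrays of 1 or more groups. Probes were named through a RefSeq gene table of assembly GRCg7b, used for names only, which gave 10458 probes a symbol. Sequences were not analysed here.

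Group means of all 45 arrays were fitted with lmFit and eBayes, without covariates. All probes of the listed genes are described, and of the other lists up to 4 genes with the largest called differences. The genes and lists were chosen with earlier results of these data known. Alternatives were another scaling, offset, filter and threshold, gene means, pool number as a block, fits of the compared groups only, fits without line Y pools 2 to 8 and fits without each pool. A fit without the array with the brightest dark corner spot, counts without saturated probes, counts without the probe kept through 1 group alone, and the correlations between probes of a gene were added after seeing the data. Scripts were tested on simulated data. Pool numbers recur between the lines. Same-numbered pools deviated together (r over 0.1) in 4 of 7 pairs at day 0, 7 of 7 at day 4 and 3 of 8 at day 16. Their mean r on these days was 0.07, 0.18 and 0.08, against -0.01, -0.03 and -0.01 for other pairs. What same-numbered pools share was not tested. The main fit did not take them as pairs, and the fit with pool number as a block did. Plots were made in Python version 3.11.15 (matplotlib version 3.10.9).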

Additional observations from a re-analysis of the deposited data

Results flagged for a closer look

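Pool 4 of line Y at day 0 lay apart from the other 6 pools of its group with 3 probes. Its log2 value was 13.91 with ANPEP probe A_87_P087786, where the next pool had 12.72, and 11.34 with ANPEP probe A_87_P307952, where the next pool had 10.48. With EZR probe A_87_P038194 it was the lowest, at 11.24, and the next pool had 11.87. These gaps were 0.733, 0.573 and 0.830 of the range of the group. In all 60 groups of pools were examined, of which chance flags about 1 in 20, and the 3 values come from 1 array and are not independent of each other. The median raw intensity of this array was 222, within the range of its group.

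The difference between the lines changed with age for some probes of ANPEP and DPP4. Between days 0 and 4 the change of the line difference was -1.02 for ANPEP probe A_87_P131683 and -0.98 for ANPEP probe A_87_P087786 (log2, adjusted p-values of limma 0.00521 and 0.0391). Between days 4 and 16 it was 0.76 for ANPEP probe A_87_P131683 (adjusted p-value 0.0172), -0.53 for DPP4 probe A_87_P056431 (adjusted p-value 0.00466) and -0.59 for DPP4 probe A_87_P312012 (adjusted p-value 0.010). The call of A_87_P087786 was lost on leaving out any 1 of 10 pools. Between days 0 and 4 the other unsaturated ANPEP probes changed by 0.01, 0.27 and 0.06, none of them called. In the mean over the ANPEP probes neither change was called, with -0.27 between days 0 and 4 and 0.30 between days 4 and 16 (adjusted p-values of limma 0.287 and 0.179). DPP4 probe A_87_P232253 is left out here because it was not well above background in line X at days 0 and 4.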

How the results depend on the processing

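Values are probes called of the 10 that were not saturated, DPP4 probe A_87_P232253 included, unless said otherwise. Shares of all probes under these settings are not given, so the counts describe the settings and are no result about the group. With scaling to the 75th percentile, 3 were called for line Y minus line X at day 16, 1 between days 0 and 4 in line Y and 3 between days 4 and 16 in line Y. An offset of 50 left 0 at day 16, and by adjusted p alone 5 were called there. Without a filter 1 was called between days 0 and 4 in line X, as in the fit of the compared groups only. Demanding the limit in all arrays, which keeps fewer probes, left 3 at day 0, 0 at day 4, 0 at day 16, 0 between days 4 and 16 in line X and 2 whose line difference changed between days 4 and 16. All 45 differences of the unsaturated probes still kept had the same call as before, so these lower counts come from dropped probes. With the pool number as a replicate block 2 were called at day 16, and no other call changed. No paired analysis was possible between days because pool numbers do not recur. With the mean over the probes of a gene, of 4 genes 1 was called at day 0, 1 at day 4, 0 at day 16, 0 between days 0 and 4 in line X, 1 between days 4 and 16 in line X and 0 for the change between days 0 and 4. The 1 gene was DPP4 each time. In line Y the means of DPP4 and EZR were also called lower at day 16 than at day 4 (-0.61 and -0.40), and that of DPP4 lower at day 4 than at day 0 (-0.42). The change of the line difference between days 4 and 16 was called for DPP4 (-1.11). The mean of DPP4 includes A_87_P232253, which passed the filter through line Y at day 0 alone and was unmeasured in line X at days 0 and 4. These calls of DPP4 are therefore no test. Neither other DPP4 probe was called at day 4 or between days 4 and 16 in line X. The cause of the other shifts was not tested. Leaving out each pool in turn gave 4 to 6 at day 0, 1 at day 4, 1 to 4 at day 16, 3 between days 0 and 4 in line Y and 1 to 3 in line X, 4 to 7 between days 4 and 16 in line Y and 1 in line X, and 2 to 3 and 4 for the changes of the line difference. The 1 call at day 4 and the 1 between days 4 and 16 in line X were of A_87_P232253. Its calls are also in the counts at days 0 and 16, between days 0 and 4 and days 4 and 16 in line Y, and for the changes of the line difference. None of these calls of that probe is a test under any setting. No called probe difference reversed under these settings, whereas uncalled ones changed sign: 6 with scaling to the 75th percentile, 1 with the block, 2 without the array with the brightest dark corner spot and 13 of 90 on leaving out some pool. The 2 probes saturated on all arrays were not counted under any setting, a choice made after seeing the data: with scaling to the 75th percentile, which divides a fixed ceiling by the brightness of the array, 8 of their 18 differences would have passed both thresholds. The mean foreground was not run.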
